A study of Mus musculus with 9 samples.

Results

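Gene expression 3 days after talc was set against gene expression 30 min after talc in mouse tissue from the left side of the chest. The comparison rests on 6 of the 9 libraries of the series, 3 of day 3 and 3 of day 0, and on all 14794 genes with enough reads to be tested, of 25652 in the table. All mice were wild type (WT), and all had received 200 µL of talc in saline at 2.0 g/kg, injected by way of the diaphragm with a 24-gauge needle. Day 0 stands for 30 min after that injection, so the earlier group carried talc as well. Neither untreated nor saline-injected mice were analysed here, and the effect of talc cannot be told apart from that of the injection. The 3 libraries of day 9 entered the statistical fit and are otherwise quoted only for a few genes. The tissue is labelled in one place as adhesion tissue and in another as left lung parenchyma attached to the chest. Libraries are numbered 1, 3 and 4 at day 3 and 1, 2 and 3 at day 0, and the labels do not say whether each came from its own mouse. If they did not, a p-value covers only the variation between these libraries.

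The pleura is a thin mesothelial sheet that lets the lung slide along the chest wall. Talc is a mineral irritant used in the clinic to make the sheets stick together. In such injury, resident cells and damaged tissue release danger signals, neutrophils and then monocytes leave the blood, clotting lays down fibrin, and macrophages clear debris before fibroblasts replace the clot with collagen. The immediate early genes, which cells switch on within minutes of a stimulus, belong to the start of this sequence.

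Library size was 14515737 to 17089112 counts at day 3 and 16685482 to 18004052 counts at day 0. Levels are given as CPM, read counts scaled to library size with TMM factors, for replicates 1, 3 and 4 of day 3 and replicates 1, 2 and 3 of day 0, always in that order, and a log2 fold change of day 3 over day 0 is given ± its standard error. A list mean is the mean log2 CPM of the tested genes of a marker list. Lung content differed among the day 3 libraries. The alveolar type 2 list, genes of the surfactant-making cells of the lung, had a mean of 3.49, 7.94 and 2.68 at day 3, against 7.72, 7.75 and 7.65 at day 0. Sftpc, which encodes surfactant protein C, had 51.6, 3157 and 24 CPM at day 3, against 2916, 2973 and 2664 CPM at day 0. Scgb1a1, the secretoglobin of airway club cells, had 85.3, 6373 and 55.8 CPM at day 3, against 4619, 4497 and 4366 CPM at day 0. Day 3 replicate 3 was at least as rich in these lung transcripts as the day 0 libraries, and replicates 1 and 4 held little of them. Cdh5, the cadherin of endothelial junctions, had 155, 412 and 239 CPM at day 3, against 419, 396 and 425 CPM at day 0, with replicate 3 inside the day 0 range and replicates 1 and 4 below it.

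Other tissues also differed from library to library. Skeletal muscle was abundant in all of them, and its myosin gene Myh4 had 28478, 13911 and 6685 CPM at day 3, against 38454, 30497 and 24825 CPM at day 0. The cartilage collagen gene Col2a1 was high in day 3 replicate 1 and day 0 replicate 3, with 857, 0.176 and 20.4 CPM at day 3, against 0.761, 0.812 and 335 CPM at day 0. The heart myosin gene Myh6 was high in day 0 replicate 3 alone, with 2.3, 10.8 and 2.05 CPM at day 3, against 2.98, 15.8 and 494 CPM at day 0. Day 3 replicate 4 stood apart in blood cell transcripts. Its neutrophil list mean was 4.07, beside 6.48 and 6.41 in day 3 replicates 1 and 3 and 5.68, 5.58 and 4.99 at day 0, and its erythroid list mean was 5.47, beside 8.50 and 8.19 in replicates 1 and 3 and 9.13, 9.30 and 8.74 at day 0. The mesothelial list, the cells that line the pleura, was at 1.26, 3.13 and 3.22 at day 3 and 1.84, 2.23 and 4.17 at day 0, so the groups overlapped. Transcripts of lung and skeletal muscle were thus present in all 6 libraries, at levels that differed, beside those of cartilage or heart in some. The part of these mixtures in a result was not tested beyond the values given beside it.

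**Figure D1:**
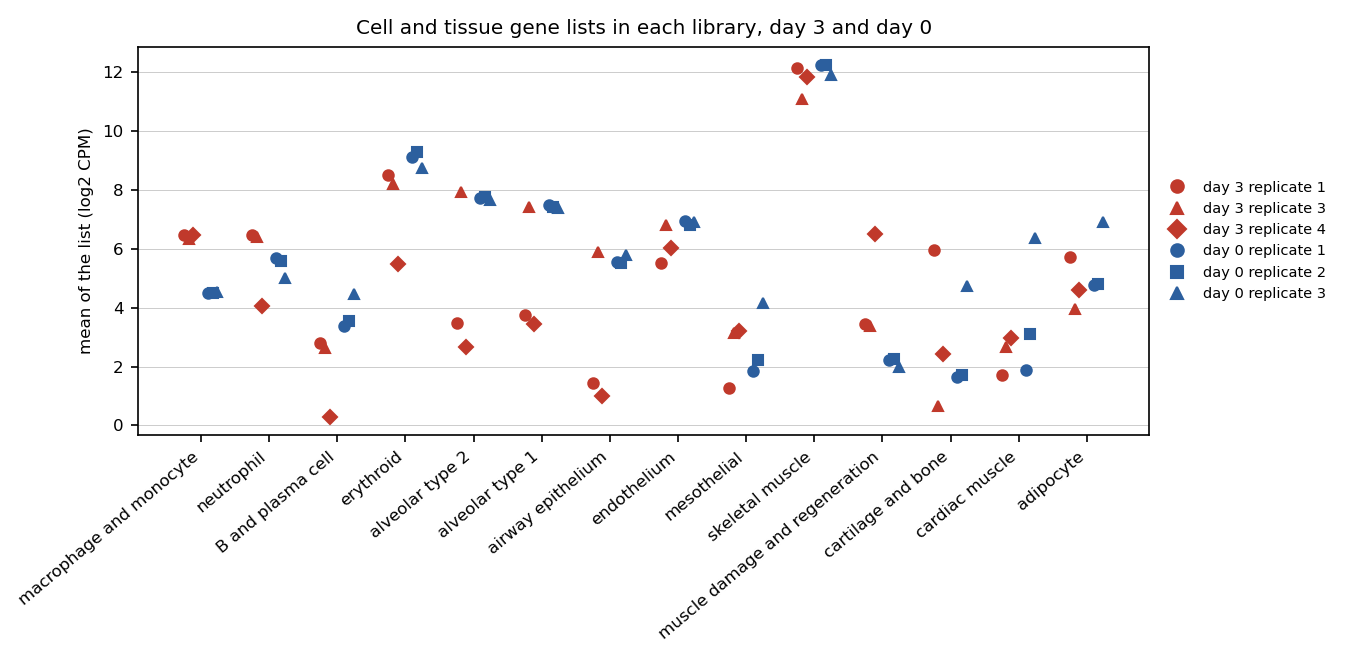
Mean log2 CPM (prior count 2) of 14 marker lists in each of the 6 libraries, day 3 in red and day 0 in blue, with the marker shape giving the replicate number. The alveolar and airway lists of day 3 replicate 3 lie at the day 0 level while replicates 1 and 4 lie far below, and the macrophage list of all 3 day 3 libraries lies above day 0.

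At day 3, 1904 (12.9%) of the 14794 tested genes exceeded day 0 and 486 (3.29%) lay under it, by edgeR's quasi-likelihood test with a Benjamini-Hochberg adjusted p under 0.05 over all tested genes. These are the genes said below to have risen or fallen. At least 8-fold changes were seen for 80 higher and 7 lower genes. The median log2 fold change of all tested genes was 0.05. In 3580 genes (24.2%) every day 3 library lay above every day 0 library, and in 1912 genes (12.9%) every day 3 library lay below, so separation of the groups was common in genes that were not called. Among called genes the groups were apart in 1903 of 1904 risen and all 486 fallen genes. Separation described below for a called gene therefore adds no support to its call. In all 1904 risen and all 486 fallen genes, day 3 replicate 3 lay on the same side of all day 0 libraries as the call. Replicates 1 and 4 lay on that side in 1904 and 1903 risen genes and in all 486 fallen genes. This agreement comes with being called, since each library helped to make the calls, and says nothing about lung content. Without day 3 replicate 3, 2555 genes (17.1% of 14977) were higher and 2624 (17.5%) lower. List counts given below without that library are to be read against these shares. Among those 2624 lower genes, replicate 3 lay below all day 0 libraries in 1291 (49.2%) and above all of them in 675. Among the 2555 higher genes it lay above all day 0 libraries in 2190 (85.7%). Over all tested genes, replicate 3 lay below in 32.4% and above in 42.9%.

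**Figure D2:**
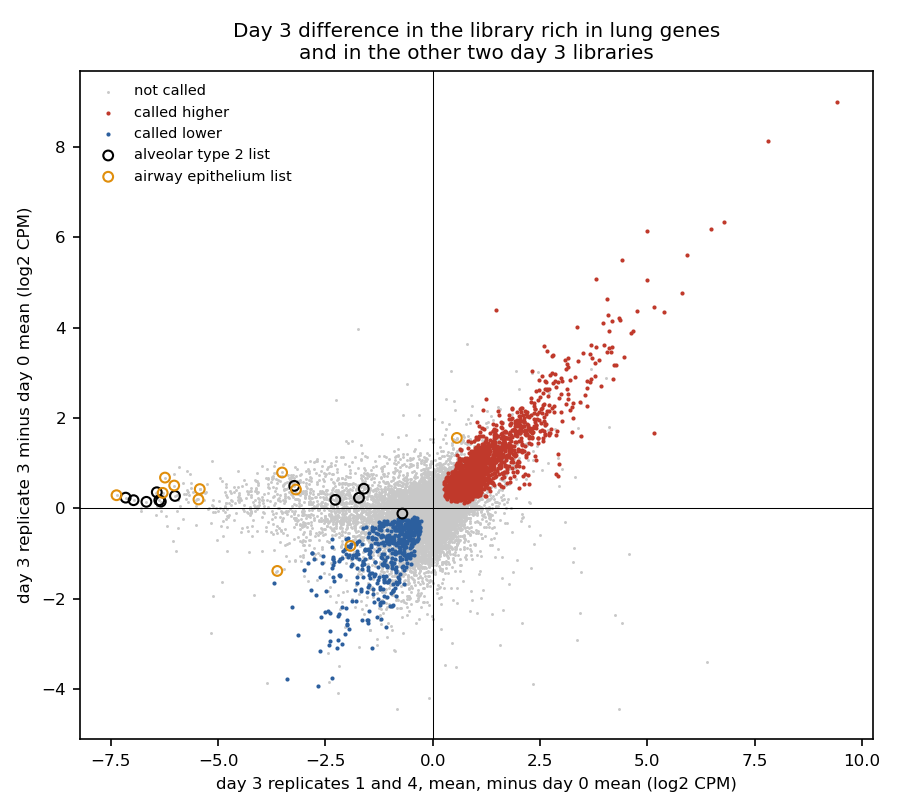
Each point is a tested gene, with the mean difference of day 3 replicates 1 and 4 from the day 0 mean on the x axis and that of day 3 replicate 3 on the y axis, both in log2 CPM. Called genes (red higher, blue lower) lie in the quadrants where both agree in sign, which comes with being called. Most genes of the alveolar type 2 and airway lists (rings) lie near 0 on the y axis and several log2 units below 0 on the x axis.

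The 15 largest rises and 15 largest falls were taken from called genes in which the groups did not overlap, so that separation in them is no finding. Inflammatory genes led the rises. Arg1, the arginase that macrophages use to turn arginine into ornithine, had 309, 295 and 497 CPM at day 3, against 0.702, 0.125 and 0.788 CPM at day 0. Saa3, an acute-phase protein made locally by macrophages and fibroblasts, had 520, 679 and 562 CPM at day 3, against 2.22, 1.5 and 3.49 CPM at day 0. Acod1, the macrophage enzyme that makes itaconate, had 39.1, 28.1 and 37 CPM at day 3, against 0.234, 0.125 and 0.338 CPM at day 0. All day 3 libraries lay far above every day 0 library. The log2 fold changes were 9.37 ± 1.34, 7.92 ± 0.77 and 7.16 ± 0.65 for Arg1, Saa3 and Acod1, with adjusted p of 0.00341, 0.000639 and 0.000556. The call of Arg1 ended with limma-voom (adjusted p = 0.0828, within 0.000787 to 0.0828 over the alternatives tried), and reads of Saa3 may be shared with its close relatives.

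The neutrophil-attracting chemokines Cxcl5 and Cxcl3 were nearly undetected at day 0. Cxcl5 had 39.9, 28.4 and 30.6 CPM at day 3, against 0.351, 0.312 and 0.169 CPM at day 0, and Cxcl3 had 15.7, 12.6 and 15.4 CPM at day 3, against 0.351, 0 and 0.169 CPM at day 0. The day 0 values rest on 14 and 9 reads over the 3 libraries, so the log2 fold changes of 6.86 ± 0.65 and 6.31 ± 0.69 (adjusted p = 0.000627 and 0.00102) carry that counting error. Without day 0 replicate 1 the log2 fold change of Cxcl3 was 7.25. Ccl24, a chemokine for eosinophils, had 36.9, 42.3 and 129 CPM at day 3, against 1.52, 0.812 and 4.56 CPM at day 0. Replicate 4 was the highest, and the log2 fold change of 4.90 ± 0.84 (adjusted p = 0.00741) was 4.09 without it and 5.88 without day 0 replicate 3. Mmp12, the macrophage elastase, had 94.6, 157 and 52.3 CPM at day 3, against 4.39, 1.87 and 1.07 CPM at day 0, a log2 fold change of 5.37 ± 0.60 (adjusted p = 0.00116) that was 6.10 without day 0 replicate 1. C3ar1, the receptor for the complement fragment C3a, had 60.8, 38.1 and 66.5 CPM at day 3, against 2.46, 1.75 and 3.49 CPM at day 0 (log2 fold change 4.42 ± 0.36, adjusted p = 0.000362).

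Serpinb2, which encodes an inhibitor of the plasminogen activator urokinase, had 41, 38.1 and 32.3 CPM at day 3, against 0.644, 0.749 and 2.14 CPM at day 0. Its log2 fold change of 4.96 ± 0.90 (adjusted p = 0.00925) lost its call without day 0 replicate 1 (0.0513) and with limma-voom (0.0554), within 9.56e-10 to 0.0727, and was 5.72 without day 0 replicate 3. Card14, a scaffold protein that feeds NF-kB signalling, had 25.7, 20.4 and 68.5 CPM at day 3, against 0.702, 0.687 and 0.507 CPM at day 0. Replicate 4 was the highest, and its log2 fold change of 5.90 ± 0.65 (adjusted p = 0.0011) was 5.17 without it. Chl1, a cell adhesion molecule best known from neurons, had 42.6, 39.7 and 16.3 CPM at day 3, against 1.93, 0.936 and 1.74 CPM at day 0 and was 21.2-fold higher (adjusted p = 0.0052).

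The remaining large rises were in muscle genes, and all were highest in the same library. Ankrd1, a stress-responsive protein of the muscle sarcomere, had 120, 216 and 1648 CPM at day 3, against 6.5, 7.18 and 24.9 CPM at day 0. Rrad, a small GTPase induced in injured muscle, had 123, 141 and 448 CPM at day 3, against 9.07, 7.93 and 10.8 CPM at day 0. Myog, the transcription factor myogenin of differentiating muscle precursors, had 14.9, 26.3 and 288 CPM at day 3, against 6.32, 3.37 and 1.97 CPM at day 0. Day 3 replicate 4 was the highest in each. The log2 fold changes were 5.68 ± 1.12, 4.67 ± 0.55 and 4.82 ± 1.15 (adjusted p = 0.0132, 0.00145 and 0.026), and 3.70, 3.83 and 2.41 without replicate 4. Ankrd1 was not called without day 0 replicate 1 or 2 (0.0635 and 0.0626) or in a fit of the 6 libraries alone (0.0562), within 2.86e-06 to 0.131 over the alternatives, and its log2 fold change was 6.59 without day 0 replicate 3. Myog was not called without any 1 of the day 0 libraries or day 9 replicate 4 (0.0531 to 0.0970), with the alveolar covariate described below (0.131), with limma-voom (0.117) or in the fit of 6 libraries (0.0848), within 0.000172 to 0.198. Chrng, the embryonic subunit of the muscle acetylcholine receptor, had 0.623, 0.588 and 84.8 CPM at day 3, against 0.117, 0.25 and 0 CPM at day 0. With 10 reads each in day 3 replicates 1 and 3 and 1114 in replicate 4, its call (adjusted p = 0.0492) rested on that library, without which the log2 fold change was 2.27 instead of 7.82 (0.177). The log2 fold change was 8.77 without day 0 replicate 2 and 7.23 without day 0 replicate 3. Of the 9 fits that left out 1 library, the call held only in those without day 3 replicate 1 or 3, and it also ended with the covariate (0.655) and with limma-voom (0.462), within 0.0109 to 0.655 over the alternatives.

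**Figure D3:**
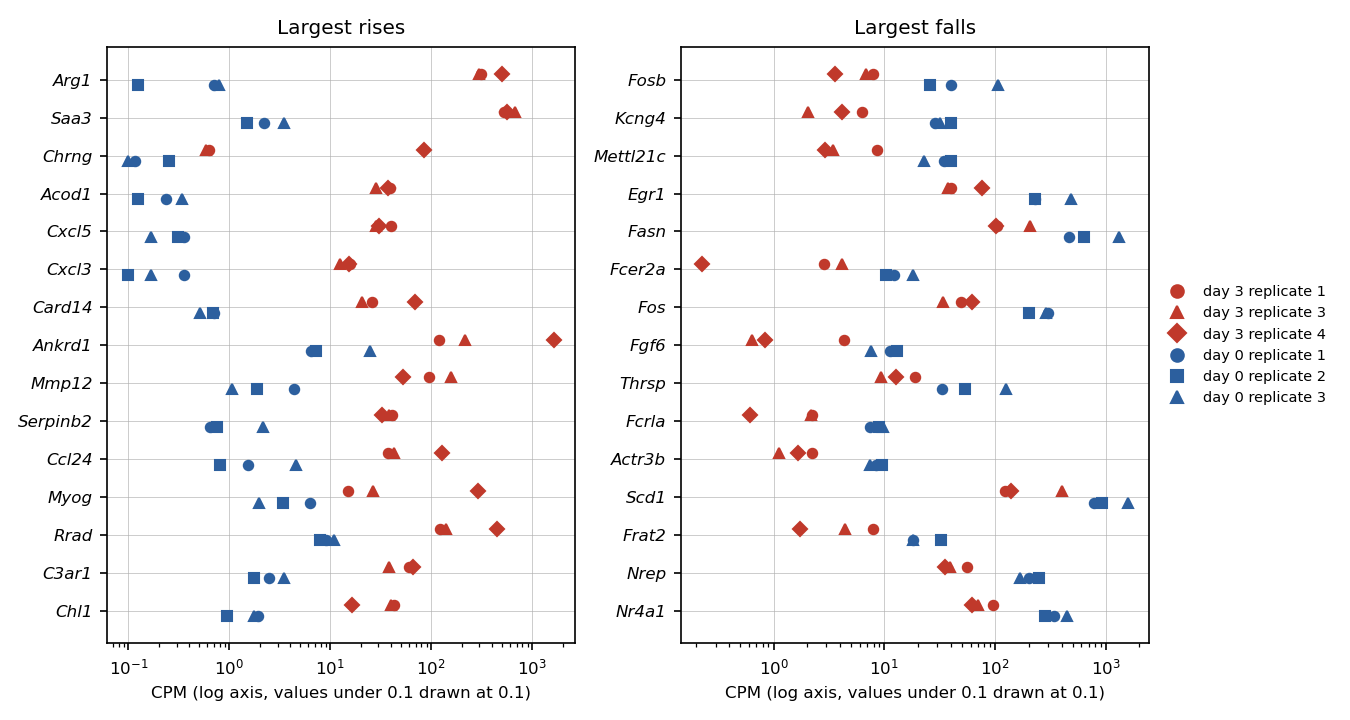
CPM in each library, on a log axis, of the 15 genes with the largest rises (left) and the 15 with the largest falls (right) among called genes averaging at least 5 CPM and without overlap between the groups, day 3 in red and day 0 in blue, with values under 0.1 drawn at 0.1. Day 3 replicate 4 stands out in Chrng, Ankrd1, Myog and Rrad.

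Among the largest falls, the immediate early genes stood out. Fos, which encodes a subunit of the AP-1 transcription factor, had 49.6, 33.8 and 62.2 CPM at day 3, against 300, 201 and 286 CPM at day 0. Egr1, a zinc finger factor induced by growth signals, had 39.8, 37.8 and 76.8 CPM at day 3, against 229, 227 and 485 CPM at day 0. Nr4a1, an orphan nuclear receptor, had 96.4, 69.3 and 62.4 CPM at day 3, against 342, 282 and 444 CPM at day 0. Day 0 replicate 3 was the highest in Egr1 and Nr4a1. The log2 fold changes were -2.43 ± 0.24, -2.61 ± 0.38 and -2.23 ± 0.25 (adjusted p = 0.000652, 0.00349 and 0.00113). Fosb, a partner of Jun proteins, had 7.97, 6.76 and 3.58 CPM at day 3, against 39.9, 25.7 and 106 CPM at day 0 (log2 fold change -3.22 ± 0.55, adjusted p = 0.00756). Day 0 replicate 3 was the highest, without which the log2 fold change was -2.42, and the call ended with the alveolar covariate described below (0.0519, within 5.06e-09 to 0.0539). At day 9 Fos was at 30.7, 29.2 and 30.9 CPM and Nr4a1 at 61.4, 95.4 and 79.9 CPM, also under every day 0 library.

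The 250 bases before the transcription start are shown for 4 genes of these opposed sets, as RefSeq gives them on GRCm38.p6, since their regulation is well studied. Saa3 (chr7:46715677-46715926, minus strand) and Cxcl3 (chr5:90785851-90786100, plus strand) are inflammatory genes that rose, and Fos (chr12:85473640-85473889, plus strand) and Nr4a1 (chr15:101266596-101266845, plus strand) are immediate early genes that fell. Capitals mark a C/EBP-like match, TTNNGCAA, in Saa3, an NF-kB-like match, GGGANTTTC, in Cxcl3, and matches like a cAMP response element, TGACGNA, in Fos and Nr4a1, each sought on both strands. C/EBP and NF-kB factors switch on acute-phase and chemokine genes, and the cAMP response element is bound by CREB, which acts within minutes of a stimulus.
Saa3: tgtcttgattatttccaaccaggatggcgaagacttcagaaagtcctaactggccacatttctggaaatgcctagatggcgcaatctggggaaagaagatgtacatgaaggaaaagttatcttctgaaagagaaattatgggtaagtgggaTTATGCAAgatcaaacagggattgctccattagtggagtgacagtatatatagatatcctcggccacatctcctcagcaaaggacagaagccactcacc
Cxcl3: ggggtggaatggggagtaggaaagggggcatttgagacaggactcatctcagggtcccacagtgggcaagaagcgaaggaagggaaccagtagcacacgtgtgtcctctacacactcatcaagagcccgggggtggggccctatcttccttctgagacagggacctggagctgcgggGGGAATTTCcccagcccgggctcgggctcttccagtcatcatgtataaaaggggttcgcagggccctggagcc
Fos: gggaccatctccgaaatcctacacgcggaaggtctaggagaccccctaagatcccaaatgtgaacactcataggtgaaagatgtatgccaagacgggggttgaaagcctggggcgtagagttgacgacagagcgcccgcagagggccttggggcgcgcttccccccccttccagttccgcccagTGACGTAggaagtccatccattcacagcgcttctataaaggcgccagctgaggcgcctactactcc
Nr4a1: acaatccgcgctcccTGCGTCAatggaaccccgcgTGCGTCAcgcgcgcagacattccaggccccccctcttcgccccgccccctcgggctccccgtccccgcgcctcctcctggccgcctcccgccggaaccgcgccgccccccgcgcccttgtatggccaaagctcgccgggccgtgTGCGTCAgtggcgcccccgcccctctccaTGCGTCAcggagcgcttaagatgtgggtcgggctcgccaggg
The match in Saa3 begins at position -99 from the start, that in Cxcl3 at -73 and that in Fos at -66, and Nr4a1 holds 4 matches, at -235, -215, -71 and -42. Of 27025 promoters of the same length, 9.55% held TTNNGCAA, 0.977% held GGGANTTTC and 4.58% held TGACGNA. Over the 11611 tested genes with a promoter entry these shares were 7.84%, 0.896% and 6.70%. Among them, 8.82% of 1530 risen and 5.56% of 378 fallen genes held TTNNGCAA, 0.915% and 0.794% held GGGANTTTC, and 6.80% and 6.35% held TGACGNA. Of 15 immediate early genes with an entry, 5 held TGACGNA. No test was made of these shares. These are matches of letters and not shown to be binding sites.

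Metabolic and muscle genes were also among the largest falls. Fasn, the fatty acid synthase, had 103, 207 and 101 CPM at day 3, against 464, 628 and 1322 CPM at day 0 (log2 fold change -2.56 ± 0.43, adjusted p = 0.00727). Kcng4, a potassium channel subunit, had 6.29, 2.06 and 4.18 CPM at day 3, against 28.8, 40 and 31.6 CPM at day 0 and fell 8.02-fold (adjusted p = 0.00218). Mettl21c, a protein methyltransferase of muscle, had 8.6, 3.41 and 2.89 CPM at day 3, against 34.4, 39.6 and 22.9 CPM at day 0 (log2 fold change -2.69 ± 0.44, adjusted p = 0.00623, and -3.35 without day 3 replicate 1). Nrep, a small protein linked to wound healing and neuronal growth, had 55.6, 39.4 and 35.4 CPM at day 3, against 203, 250 and 169 CPM at day 0 (log2 fold change -2.26 ± 0.22, adjusted p = 0.000704). Its day 9 libraries held 256, 194 and 199 CPM, and day 9 was above day 3 (log2 fold change 2.31, adjusted p = 0.00291). Kcng4 was likewise above day 3 at day 9, with 32.9, 20.1 and 19.6 CPM (log2 fold change 2.53, adjusted p = 0.00938). Actr3b, an actin-related protein of the Arp2/3 complex, fell 5.01-fold (adjusted p = 0.00162) with 2.24, 1.12 and 1.67 CPM at day 3, against 8.37, 9.49 and 7.43 CPM at day 0.

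Other leading falls depended on single libraries. Fcer2a, the low-affinity IgE receptor of B cells, had 2.87, 4.11 and 0.228 CPM at day 3, against 12.1, 10.4 and 18 CPM at day 0. Its log2 fold change of -2.47 ± 0.69 (adjusted p = 0.044) was -3.15 without day 3 replicate 3, and of the 9 fits that left out 1 library the call held only in those without day 3 replicate 3 or 4, within 0.00168 to 0.164 over the alternatives, with 0.158 under the alveolar covariate. Scd1, the stearoyl-CoA desaturase, had 123, 401 and 138 CPM at day 3, against 776, 915 and 1576 CPM at day 0, and its call (adjusted p = 0.0171) ended without day 0 replicate 3 (0.0583) and in a fit of the 6 libraries alone (0.0613), within 4.97e-06 to 0.0843. Its log2 fold change was -2.30, and -3.12 without day 3 replicate 3. Thrsp, a regulator of lipid synthesis, had 19.1, 9.4 and 12.7 CPM at day 3, against 32.8, 53.1 and 126 CPM at day 0. The log2 fold change of -2.37 (adjusted p = 0.0363) was -1.65 without day 0 replicate 3, and the call was lost without day 0 replicate 2 or 3, day 3 replicate 1 or 4, or day 9 replicate 3 (0.0523 to 0.117) and in the fit of 6 libraries (0.0540), within 0.000338 to 0.215. Fgf6, a fibroblast growth factor of muscle, had 4.36, 0.646 and 0.837 CPM at day 3, against 11.3, 12.9 and 7.65 CPM at day 0. On the log2 scale its change of -2.43 (adjusted p = 0.0356) was -3.83 without day 3 replicate 1, and the call held only in the fits without that library or without day 3 replicate 3, of the 9 fits that left out 1 library (0.0543 to 0.106 in the others), within 0.000668 to 0.139. Frat2, which acts in Wnt signalling, had 7.85, 4.41 and 1.75 CPM at day 3, against 18, 32.4 and 18.3 CPM at day 0. Its log2 fold change of -2.28 (adjusted p = 0.0161) was -2.87 without day 3 replicate 1, and the call ended without day 0 replicate 2 (0.0643), with the alveolar covariate (0.0650) and in the fit of 6 libraries (0.0567), within 1.67e-05 to 0.129.

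Macrophage and monocyte genes rose together. Of 20 tested, 16 rose and 0 fell, with a median log2 fold change of 2.06, against 12.9% higher and 3.29% lower over all tested genes. Clec4e, a lectin receptor of myeloid cells, had 44, 43.9 and 49.7 CPM at day 3, against 4.68, 2.87 and 3.15 CPM at day 0. Clec4d, a lectin of the same family, had 36.2, 34.1 and 33.1 CPM at day 3, against 6.67, 4.81 and 3.66 CPM at day 0. Itgam, the integrin CD11b of myeloid cells, had 218, 206 and 194 CPM at day 3, against 50.2, 54 and 46.5 CPM at day 0. None of the 3 day 3 libraries overlapped day 0. Changes on the log2 scale were 3.68 ± 0.21, 2.77 ± 0.20 and 2.04 ± 0.13 (adjusted p = 0.000103, 0.000249 and 0.000166). Called list genes are named here and below for the smallest adjusted p, which favours libraries that lie close together. Closeness of their libraries is therefore no finding. Ccr2, the receptor that brings inflammatory monocytes out of the marrow, was at 105 ± 25.1 CPM on day 3, against 20.1 ± 1.93 CPM on day 0 (SD, n = 3 each), 5.21-fold higher (adjusted p = 0.000249). In bulk tissue a larger number of such cells and more RNA of these genes per cell cannot be told apart. Lyz2, the lysozyme of macrophages and alveolar type 2 cells, had 1520, 2698 and 1499 CPM at day 3, against 1152, 1231 and 1189 CPM at day 0 and did not pass (adjusted p = 0.0929). Counts of 16 higher and 0 lower were also found without day 3 replicate 3 and with the covariate.

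The covariate is the mean of the alveolar type 2 list in each library, added to the fit to track lung content. With it 1031 genes (6.97%) were higher and 676 (4.57%) lower at day 3, and 915 of the 1904 risen and 209 of the 486 fallen genes were still called in the same direction. Of 12 alveolar macrophage genes 1 rose (8.33%, against 12.9% of all tested genes) and 0 fell, with a median of 0.01. Of 8 genes of large macrophages of body cavities 3 rose and 0 fell, with a median of -0.40. Without day 3 replicate 3 these counts were 0 and 1, and 3 and 2, and with the covariate 0 and 0, and 1 and 0. Of the 3 that rose, Selp was called in all 9 fits that left out 1 library. It encodes P-selectin of endothelium and platelets as well, and had 30, 19.5 and 27.5 CPM at day 3, against 4.51, 4.49 and 5.07 CPM at day 0 (log2 fold change 2.45 ± 0.22, adjusted p = 0.000518).

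Of 15 neutrophil genes, 2 rose and 0 fell, near the 12.9% of all tested genes, with a median of 0.41, and the 2 were Clec4e, which macrophages share, and Trem1, an activating receptor of myeloid cells with 15.5, 16.7 and 14.8 CPM at day 3, against 5.91, 4 and 6.47 CPM at day 0. The call of Trem1 (adjusted p = 0.032) was lost without any 1 of the day 0 libraries, day 3 replicate 1 or 4, or day 9 replicate 4 (0.0547 to 0.112), within 0.00249 to 0.203. S100a9, a calcium-binding protein that fills neutrophils, had 974, 872 and 135 CPM at day 3, against 607, 598 and 333 CPM at day 0, and the groups overlapped (adjusted p = 0.706). Replicates 1 and 3 of day 3 lay above all day 0 libraries, and replicate 4 below. Some lymphocyte genes fell. Of 11 T cell genes 0 rose and 3 fell, and of 11 B and plasma cell genes 0 rose and 4 fell, with medians of -1.60 and -1.70. With the covariate 1 T cell and 1 B cell gene fell, and without day 3 replicate 3 these counts were 6 and 8. Of the T cell genes that fell, Lck lost its call in 8 and Cd28 in 7 of the 9 fits that left out 1 library. Among the B cell genes, Cd79a and Cd79b lost theirs in 7 each and Blk in 2. Fcrla, an Fc receptor-like protein of B cells, had 2.24, 2.17 and 0.609 CPM at day 3, against 7.43, 8.86 and 9.68 CPM at day 0 (log2 fold change -2.35 ± 0.44, adjusted p = 0.011). Day 3 replicate 4 was the lowest. Cd3e, a chain of the T cell receptor complex, had 0.436, 1.41 and 0.685 CPM at day 3, against 2.63, 3 and 4.22 CPM at day 0. Its call (adjusted p = 0.0262) was lost when a day 0 library or day 3 replicate 1 or 4 was left out (0.0520 to 0.0921), with the covariate (0.0994) and in the fit of 6 libraries (0.0733), within 0.00104 to 0.167, and its log2 fold change of -1.94 was -2.62 without day 3 replicate 3. Natural killer and innate lymphoid genes fell in 1 of 10 cases and dendritic cell genes in 0 of 9, and neither list had a gene that rose. Without day 3 replicate 3, 4 and 2 genes of these lists fell. No gene of the eosinophil, basophil and mast cell list was called, of 12, and 2 fell without that library. Those 2 are near the 17.5% of all tested genes that were lower in that fit.

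Receptors that sense danger were raised broadly. Of 21 pattern receptor and inflammasome genes, 16 rose and 0 fell, with a median of 1.42. Tlr2, the Toll-like receptor for lipoproteins, had 37.9, 45.7 and 41 CPM at day 3, against 11.4, 10.7 and 12.4 CPM at day 0. Myd88, the adaptor of most Toll-like receptors, had 48, 54.3 and 52.6 CPM at day 3, against 19.9, 21.5 and 20.8 CPM at day 0. Pycard, the adaptor that assembles inflammasomes, had 23, 20.2 and 25 CPM at day 3, against 5.85, 6.68 and 8.16 CPM at day 0. In these genes the 3 day 3 libraries lay above day 0, at log2 fold changes of 1.85 ± 0.12, 1.31 ± 0.10 and 1.72 ± 0.16 (adjusted p = 0.000175, 0.000279 and 0.000573). Clec4n, the fungal receptor dectin-2, rose 8.63-fold (adjusted p = 0.000786). Nod1, a cytosolic sensor of bacterial cell wall, was at 48.6 ± 4.78 CPM on day 3, against 42.3 ± 0.445 CPM on day 0 and did not pass (adjusted p = 0.37).

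Danger signals and acute-phase genes rose in 9 of 15 cases and fell in 0, with a median of 1.57. Serpina3n, a serine protease inhibitor of the acute phase, had 359, 418 and 454 CPM at day 3, against 45.4, 41.6 and 50.8 CPM at day 0. Ptx3, a soluble pattern receptor made at sites of injury, had 48.4, 27 and 28.5 CPM at day 3, against 8.25, 7.24 and 8.33 CPM at day 0. Every day 3 library was above day 0 in both. The log2 fold changes were 3.16 ± 0.23 and 2.12 ± 0.24 (adjusted p = 0.000249 and 0.0013). Serpina3m, a close relative of Serpina3n, rose 10.2-fold (adjusted p = 0.00255), and reads of the Serpina3 family may be split among its members. Both Serpina3n and Serpina3m were lower again at day 9 than at day 3 (log2 fold change -2.79 and -4.96, adjusted p = 0.00179 and 0.00359). Hp, haptoglobin, had 1310, 424 and 360 CPM at day 3, against 269, 281 and 460 CPM at day 0 and did not pass (adjusted p = 0.153), with day 3 replicate 1 far above the others.

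Among cytokine genes, 6 of 14 ligands rose and 1 fell, with a median of 1.26, and 13 of 22 receptors rose and 1 fell, with a median of 0.88. Il1rn, the natural blocker of interleukin 1, had 67, 46.5 and 54.8 CPM at day 3, against 5.38, 4.49 and 3.77 CPM at day 0. Il1b, interleukin 1 beta itself, had 52.4, 41.7 and 65.9 CPM at day 3, against 7.61, 5.62 and 10 CPM at day 0. Tnf, tumour necrosis factor, had 6.66, 7.46 and 6.09 CPM at day 3, against 0.644, 0.687 and 1.24 CPM at day 0. The blocker and both cytokines were above day 0 in every day 3 library, with log2 fold changes of 3.62 ± 0.29, 2.78 ± 0.43 and 2.96 ± 0.38 (adjusted p = 0.000362, 0.00486 and 0.00219). Csf1, the growth factor of macrophages, rose 2.54-fold (adjusted p = 0.00102). Of the receptors, Tnfrsf1b, the second receptor for tumour necrosis factor, rose 3.2-fold, Csf2rb, the shared chain of the granulocyte-macrophage factor receptor, 3.49-fold, and Il13ra1, a chain of the interleukin 13 receptor, 2.35-fold (adjusted p = 0.000556, 0.00249 and 0.000917). Il6st, the chain shared by the interleukin 6 family, was at 338 ± 27.1 CPM on day 3, against 285 ± 4.64 CPM on day 0 and did not pass (adjusted p = 0.192).

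Genes that damp cytokine signals moved in both directions, with 6 of 17 higher and 3 lower, and 6 and 5 without day 3 replicate 3. Bcl3, an atypical inhibitor of the NF-kB family, had 33.7, 40.5 and 53.3 CPM at day 3, against 7.96, 8.68 and 10.9 CPM at day 0 (log2 fold change 2.21 ± 0.24, adjusted p = 0.00102). Nfkbie, another NF-kB inhibitor, Irak3, a brake on Toll-like receptors, and Tnip1, a partner of the ubiquitin editor A20, rose 2.61-fold, 2.06-fold and 1.67-fold (adjusted p = 0.00349, 0.00235 and 0.005). Dusp1, the phosphatase that switches off stress kinases, had 89.8, 101 and 113 CPM at day 3, against 391, 285 and 399 CPM at day 0 and fell (log2 fold change -1.82 ± 0.19, adjusted p = 0.000949). Zfp36, which shortens the life of cytokine mRNAs, had 98.6, 97.3 and 111 CPM at day 3, against 217, 219 and 399 CPM at day 0 and fell as well (log2 fold change -1.44 ± 0.23, adjusted p = 0.00555). Dusp1 and Zfp36 are themselves induced within minutes of a stimulus, and all their day 3 libraries were under day 0.

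Chemokine ligands rose in 14 of 28 cases and fell in 1, with a median of 1.88, and chemoattractant receptors rose in 8 of 19 and fell in 0. Ccl8, which draws monocytes, had 31.6, 31.6 and 23.9 CPM at day 3, against 1.46, 1.44 and 1.63 CPM at day 0. Ccl9 and Ccl6 are related mouse chemokines of myeloid cells whose reads may be shared. Ccl9 had 283, 212 and 343 CPM at day 3, against 17.7, 20.3 and 32.3 CPM at day 0, and Ccl6 had 385, 329 and 547 CPM at day 3, against 43.7, 52.6 and 63.2 CPM at day 0. All of these day 3 values lay above day 0. They differed by 4.26 ± 0.23, 3.57 ± 0.27 and 2.98 ± 0.23 on the log2 scale (adjusted p = 9.23e-05, 0.000253 and 0.000268). Pf4, platelet factor 4, rose 3.96-fold (adjusted p = 0.000211). Cxcl12, the chemokine that holds cells in the marrow, was at 289 ± 26.3 CPM on day 3, against 234 ± 13.3 CPM on day 0 (adjusted p = 0.108). Of the receptors, C5ar1, which senses the complement fragment C5a, had 80.1, 59.9 and 81.4 CPM at day 3, against 14, 12.9 and 14.2 CPM at day 0. It was high in all 3 day 3 libraries, with a log2 fold change of 2.43 ± 0.14 (adjusted p = 9.31e-05). Ccr1 rose 4.34-fold (adjusted p = 0.000243).

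Leukocyte adhesion genes rose in 7 of 15 cases and fell in 0, and without day 3 replicate 3 in 5 and 3. Those 3 falls are near the 17.5% of all tested genes that were lower in that fit. Cd44, the receptor for hyaluronan, had 187, 206 and 162 CPM at day 3, against 80, 81.7 and 77.5 CPM at day 0, and Itgb2, the beta chain of leukocyte integrins, had 211, 221 and 176 CPM at day 3, against 70.6, 73.5 and 71.1 CPM at day 0. The groups were apart in both, at log2 fold changes of 1.21 ± 0.12 and 1.5 ± 0.19 (adjusted p = 0.000627 and 0.00219). Interferon response genes rose in 7 of 16 cases and fell in 0, and in 2 with the alveolar covariate. Oas2 and Oas1a, sensors of double-stranded RNA, rose 5.05-fold and 4.65-fold (adjusted p = 0.0008 and 0.00341), with replicate 3 the lowest of the day 3 libraries in each, at 20.2 and 12.1 CPM. Reads of the Oas1 family may be shared among its copies.

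The effector machinery of phagocytes was raised as well. Oxidase and antioxidant genes rose in 11 of 18 cases and fell in 0, with a median of 1.08. Hmox1, which breaks down heme, had 191, 146 and 214 CPM at day 3, against 22.6, 23 and 31.2 CPM at day 0. Every day 3 library was above day 0, at a log2 fold change of 2.84 ± 0.21 (adjusted p = 0.000249), and the phagocyte oxidase subunits Ncf4 and Cyba rose 3.02-fold and 2.86-fold (adjusted p = 0.00107 and 0.0011). Lysosome and phagocytosis genes rose in 13 of 21 cases and fell in 0, with a median of 0.82, and in 9 with the covariate. Ctss, the protease cathepsin S, had 309, 286 and 401 CPM at day 3, against 52.8, 56.7 and 68.1 CPM at day 0. Gpnmb, a glycoprotein of lipid-laden macrophages, had 187, 166 and 121 CPM at day 3, against 13, 8.55 and 7.71 CPM at day 0. Both were apart from day 0 in every day 3 library (log2 fold change 2.49 ± 0.25 and 4.02 ± 0.47, adjusted p = 0.000719 and 0.00138). Lgmn, the lysosomal protease legumain, and Tfec, a transcription factor of macrophages, rose 4.78-fold and 5.26-fold (adjusted p = 0.0012 and 0.000794). Gpnmb was higher still at day 9, with 5242, 1604 and 2615 CPM and a log2 fold change of day 9 over day 3 of 4.32 (adjusted p = 0.0042), while Hmox1 was lower at day 9 than at day 3 (log2 fold change -0.83, adjusted p = 0.035).

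Lipid mediators and arginine metabolism moved in part. Of 13 eicosanoid enzyme genes 5 rose and 0 fell, and 2 rose with the covariate. Without day 3 replicate 3 these counts were 4 and 1. Alox5ap, the partner of 5-lipoxygenase in leukotriene synthesis, had 83, 85.2 and 82.2 CPM at day 3, against 28.2, 27.8 and 24.8 CPM at day 0 (log2 fold change 1.63 ± 0.10, adjusted p = 0.000108), and Tbxas1, the thromboxane synthase, rose 3.3-fold (adjusted p = 0.0015). In the arginine and polyamine list 4 of 12 genes rose and 1 fell, and 3 and 2 without that library. Beside Arg1, the rises included Srm, the spermidine synthase (2.69-fold, adjusted p = 0.000627), and Ass1, which rebuilds arginine from citrulline (2.17-fold, adjusted p = 0.00738). Nos2, the inducible nitric oxide synthase, also rose (2.33-fold, adjusted p = 0.0477). Its call was lost in 6 of the 9 fits that left out 1 library and with the covariate (0.0615), within 0.0138 to 0.149. The gene that fell was Amd1, the decarboxylase that supplies polyamine synthesis, with 129, 102 and 100 CPM at day 3, against 578, 469 and 274 CPM at day 0 (log2 fold change -2.0 ± 0.26, adjusted p = 0.00228).

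Complement genes rose in 5 of 16 cases and fell in 0, and without day 3 replicate 3 in 6 and 3. C1qa, C1qb and C1qc, the 3 chains of C1q that macrophages make, rose 4.24-fold, 5.09-fold and 3.66-fold (adjusted p = 0.00291, 0.00398 and 0.00677), and Cfp, properdin, rose 4.73-fold (adjusted p = 0.00307). C3, the central complement protein, had 1466, 1146 and 1198 CPM at day 3, against 310, 333 and 798 CPM at day 0 without overlap, and did not pass (adjusted p = 0.0534). Clotting genes rose in 9 of 18 cases and fell in 0, with a median of 0.87, and without that library in 9 and 3. The 3 falls of each list without it are near the 17.5% of all tested genes that were lower in that fit. F10, coagulation factor X, had 41.5, 44.9 and 53.4 CPM at day 3, against 3.63, 4.49 and 4.05 CPM at day 0. F7, factor VII, had 24.3, 22.9 and 22.8 CPM at day 3, against 2.34, 4.25 and 3.1 CPM at day 0. F13a1, the chain of factor XIII that cross-links fibrin, had 190, 141 and 152 CPM at day 3, against 39.3, 36 and 55.9 CPM at day 0. In all 3 the day 3 libraries lay above day 0, at log2 fold changes of 3.52 ± 0.16, 2.85 ± 0.24 and 1.88 ± 0.24 (adjusted p = 7.79e-05, 0.000444 and 0.00203). Procr, the endothelial protein C receptor, rose 2.69-fold (adjusted p = 0.00232). Thbd, thrombomodulin, an anticoagulant of endothelium, had 64, 353 and 85 CPM at day 3, against 318, 316 and 324 CPM at day 0 and was not called. Replicate 3 lay above the day 0 range, and replicates 1 and 4 far below it, the same order of lung-rich over lung-poor as in the alveolar list.

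Matrix genes were mixed at day 3, with 6 of 24 higher, 2 lower and a median of 0.08. Vcan, the proteoglycan versican of provisional matrix, had 86.6, 95.8 and 85.7 CPM at day 3, against 18.3, 25.6 and 18.5 CPM at day 0. Fn1, fibronectin, had 1626, 1576 and 1472 CPM at day 3, against 363, 446 and 699 CPM at day 0, and Spp1, osteopontin, had 1659, 1285 and 807 CPM at day 3, against 267, 191 and 124 CPM at day 0. The groups were apart in all 3 genes, at log2 fold changes of 2.10 ± 0.18, 1.63 ± 0.28 and 2.69 ± 0.41 (adjusted p = 0.000442, 0.00715 and 0.00454). The 2 that fell were Eln, elastin, and Postn, periostin (log2 fold change -1.10 and -0.93, adjusted p = 0.0181 and 0.0368). Both lost their call with the covariate (0.0922 and 0.0942) and without day 0 replicate 1 or 2. Col1a1, a collagen gene and the most abundant of the list, had 5853, 1888 and 2110 CPM at day 3, against 3622, 3884 and 2561 CPM at day 0. It did not pass (adjusted p = 0.968), and its log2 fold change lay between -0.75 and 0.21 with 1 library left out. Col3a1, another collagen gene, was among the 6 that rose (log2 fold change 1.13, adjusted p = 0.0374). The other collagen genes of the list were not called. Matrix proteases and inhibitors rose in 6 of 17 cases and fell in 0, and without day 3 replicate 3 in 6 and 3. Those 3 falls are near the 17.5% of all tested genes that were lower in that fit. Timp1, an inhibitor of matrix metalloproteases, had 138, 147 and 203 CPM at day 3, against 12.2, 10.7 and 6.7 CPM at day 0. Adamts4, an aggrecanase, had 31.3, 28.6 and 30.7 CPM at day 3, against 6.2, 8.62 and 8.16 CPM at day 0. Adam8, a protease of leukocytes, had 95.4, 79.1 and 62 CPM at day 3, against 21.2, 19.4 and 16.6 CPM at day 0. Every day 3 library was above day 0, and the log2 fold changes were 4.04 ± 0.53, 1.98 ± 0.16 and 2.05 ± 0.19 (adjusted p = 0.00227, 0.000362 and 0.000613).

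Growth factors rose in 3 of 20 cases and fell in 2, and without day 3 replicate 3 in 3 and 5. Vegfa, the growth factor of blood vessels, which alveolar type 1 cells also make, had 203, 262 and 209 CPM at day 3, against 443, 488 and 533 CPM at day 0 and fell (log2 fold change -1.12 ± 0.18, adjusted p = 0.00586). Tgfb1, the transforming growth factor that drives scarring, had 83.4, 74 and 90.4 CPM at day 3, against 53.3, 53.2 and 48.4 CPM at day 0. Its rise of 1.6-fold (adjusted p = 0.0188) lost its call without any 1 of the day 0 libraries (0.0658 to 0.0748) and with the covariate (0.0857), within 0.00347 to 0.124. Fibroblast genes rose in 1 of 14 cases (7.14%, against 12.9% of all tested genes) and fell in 3 (21.4%, against 3.29%). Without day 3 replicate 3 they rose in 3 and fell in 5. Pdgfrb, the receptor of pericytes and fibroblasts, and Ltbp4, which stores latent transforming growth factor in elastic fibres, fell 1.56-fold and 2.77-fold (adjusted p = 0.00694 and 0.0071). Pdgfrb was higher at day 9 than at day 3 (log2 fold change 0.65, adjusted p = 0.0117).

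**Figure D4:**
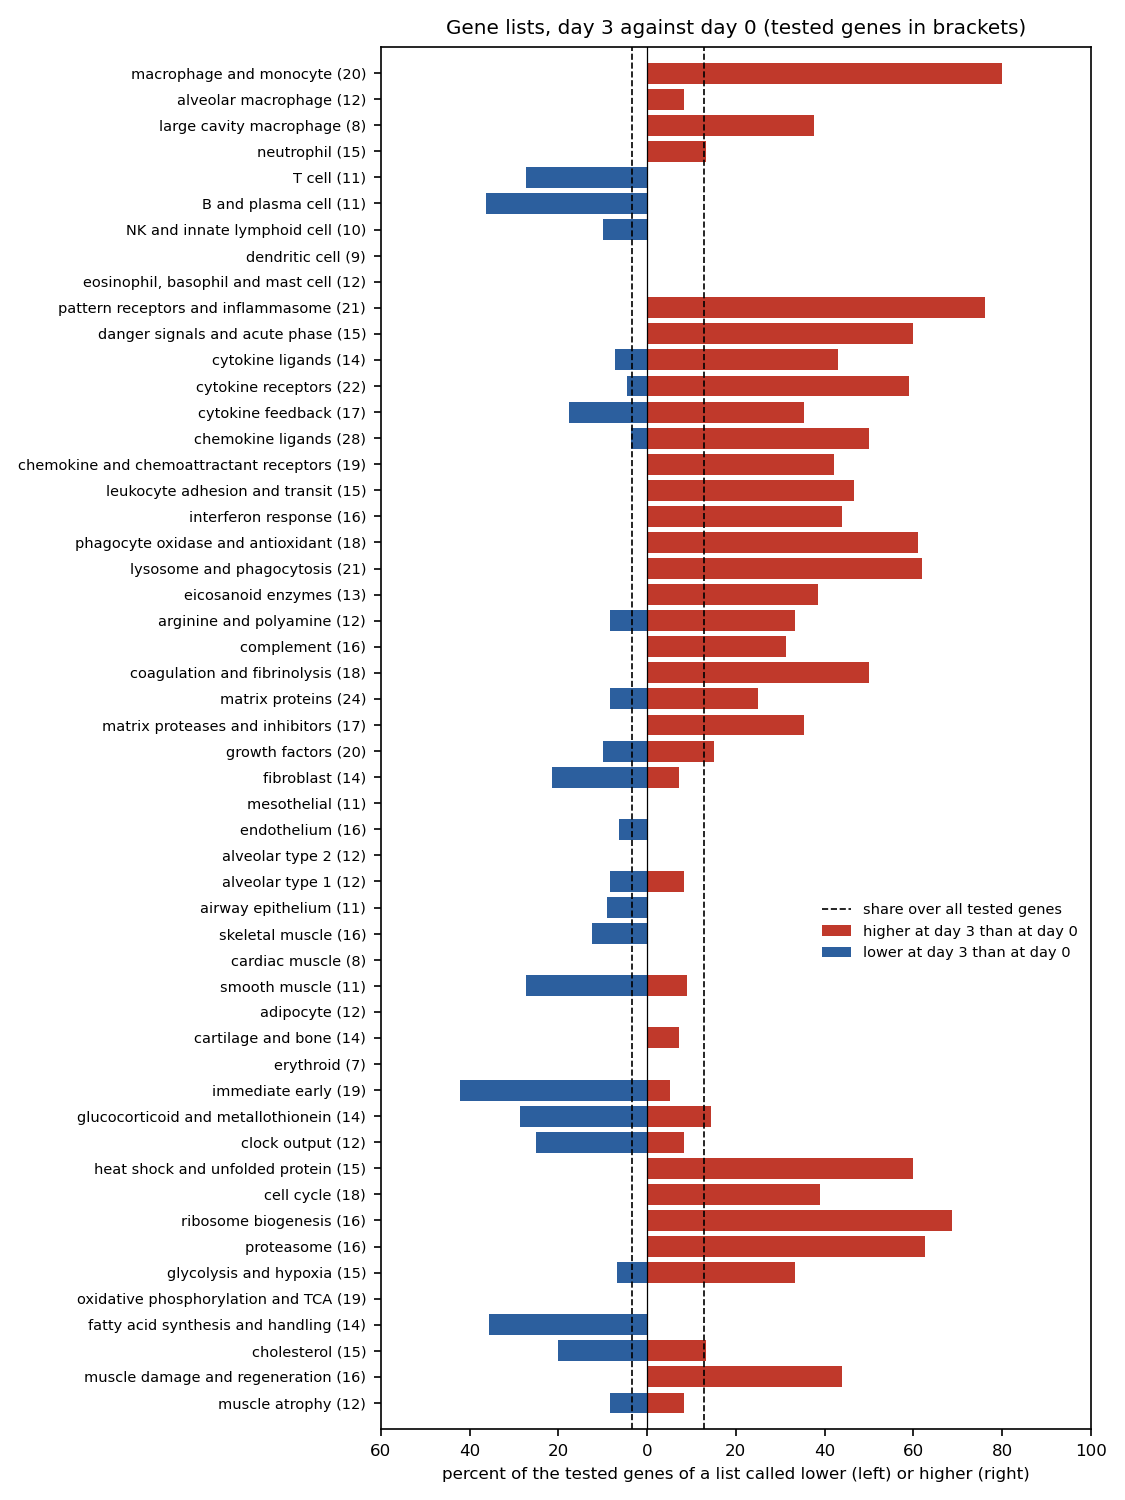
Share of the tested genes of each list (number in brackets) that rose (red, right) or fell (blue, left) at day 3 against day 0, in percent, with dashed lines at the shares over all tested genes, 12.9% and 3.29%. The macrophage, pattern receptor, ribosome biogenesis and proteasome lists have the longest bars to the right, and the immediate early, B and plasma cell and fatty acid lists the longest to the left.

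Lung epithelium showed how much the call counts turned on 1 library. Of 12 alveolar type 2 genes 0 rose and 0 fell, although their median log2 fold change was -1.24, and without day 3 replicate 3 all 12 fell, with a median of -6.19. For 12 alveolar type 1 genes the counts were 1 higher and 1 lower with all libraries, and 1 and 11 without replicate 3. The one that rose was Pdpn, podoplanin, which lymphatic vessels, fibroblasts and macrophages also carry, with 80.5, 123 and 91.1 CPM at day 3, against 43.5, 38.5 and 42.4 CPM at day 0 (log2 fold change 1.24 ± 0.18, adjusted p = 0.00332). The one that fell was Vegfa. Cav1, the caveolin of type 1 cells and endothelium, had 194, 374 and 272 CPM at day 3, against 449, 413 and 496 CPM at day 0 (adjusted p = 0.0842). For 11 airway genes, 0 rose and 1 fell with all libraries, and 0 and 10 without replicate 3. That one, Tppp3 of ciliated cells, had 54.5, 109 and 48.1 CPM at day 3, against 223, 190 and 171 CPM at day 0, and its call (adjusted p = 0.0173) ended without day 0 replicate 1 or 2 (0.0690 and 0.0563) and in the fit of 6 libraries (0.0515), within 3.85e-05 to 0.148. For 16 endothelial genes these counts were 0 and 1, and 0 and 12. The single call was Plvap, a protein of capillary pores, with 99.5, 170 and 96.4 CPM at day 3, against 273, 236 and 230 CPM at day 0. Its fall of 2.02-fold (adjusted p = 0.0363) lost its call in 6 of the 9 fits that left out 1 library, those lacking one of the day 0 libraries, replicate 1 or 4 of day 3, or replicate 3 of day 9 (0.0607 to 0.116), with the covariate (0.135) and in the fit of 6 libraries (0.0609), within 0.00141 to 0.17.

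The mesothelial, cardiac, adipocyte, erythroid and cartilage lists had next to no calls. Of 11 mesothelial, 8 cardiac, 12 adipocyte and 7 erythroid genes 0 rose and 0 fell, with medians of -0.79, -1.85, -0.79 and -1.33, and of 14 cartilage and bone genes 1 rose and 0 fell, with a median of 1.27. Without day 3 replicate 3, 1 cardiac gene fell. Immediate early genes fell in 8 of 19 cases and rose in 1, with a median of -0.74. The one that rose, Fosl1, another partner of Jun proteins, was low throughout, with 0.872, 1.18 and 1.29 CPM at day 3, against 0, 0 and 0.169 CPM at day 0, and its call (adjusted p = 0.0298) ended in 4 of the 9 fits that left out 1 library, those without day 0 replicate 1 or 2, day 3 replicate 4 or day 9 replicate 3 (0.0533 to 0.103), and in the fit of 6 libraries (0.0692), within 0.00317 to 0.174. Without day 3 replicate 3, 11 fell, and with the covariate 3 did. Of 14 genes that answer glucocorticoids and metals 2 rose (14.3%), near the 12.9% of all tested genes. In that list 4 fell (28.6%, against 3.29% of all tested genes), and with the covariate 0 rose and 3 fell. Ddit4, a stress-induced brake on growth signalling, had 41.7, 43.9 and 56.1 CPM at day 3, against 124, 121 and 127 CPM at day 0. Zbtb16, a transcription factor induced by glucocorticoids, had 40.1, 32 and 20.4 CPM at day 3, against 75.1, 75.1 and 98.4 CPM at day 0. Errfi1, a feedback inhibitor of the epidermal growth factor receptor, had 98, 172 and 116 CPM at day 3, against 359, 335 and 407 CPM at day 0. Every day 3 library was under day 0, and the log2 fold changes were -1.40 ± 0.22, -1.43 ± 0.24 and -1.51 ± 0.28 (adjusted p = 0.00536, 0.00731 and 0.00958). Mt2, a metallothionein that binds zinc and copper, had 252, 228 and 532 CPM at day 3, against 34.8, 45.6 and 86.5 CPM at day 0. Its log2 fold change of 2.60 ± 0.53 (adjusted p = 0.0145) was not called without day 0 replicate 1 or 2 (0.0655 and 0.0668) or with the covariate (0.0540), within 3.61e-06 to 0.106.

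Of 12 clock genes 1 rose (8.33%, against 12.9% of all tested genes) and 3 fell (25.0%, against 3.29%). With the covariate the counts were 3 and 4. Arntl, a core activator of the clock, had 21.2, 17.6 and 24 CPM at day 3, against 45.8, 43.1 and 43.1 CPM at day 0, and its relative Npas2 had 6.98, 8.46 and 8.75 CPM at day 3, against 14.6, 15 and 13.7 CPM at day 0. Dbp, a target that cycles in the opposite phase, had 23.2, 20.2 and 14 CPM at day 3, against 8.19, 5.74 and 4.05 CPM at day 0. The groups were apart in all 3, at log2 fold changes of -1.07 ± 0.14, -0.84 ± 0.14 and 1.67 ± 0.31 (adjusted p = 0.0022, 0.00694 and 0.00988). Nr1d1, a repressor of Arntl that cycles close to Dbp, also fell, with 94.1, 46.7 and 93.4 CPM at day 3, against 164, 134 and 151 CPM at day 0. It changed by -0.94 ± 0.27 on the log2 scale (adjusted p = 0.0477), and of the 9 fits that left out 1 library the call held only in that without day 3 replicate 3 (0.0509 to 0.139 in the others), and it ended in the fit of 6 libraries (0.0872), within 0.00437 to 0.208. The hour at which tissue was taken is not given in the sources used here.

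Genes of protein folding in the endoplasmic reticulum rose. Of 15 heat shock and unfolded protein genes 9 rose and 0 fell, with a median of 0.69. Manf, Sdf2l1 and Creld2 are induced when folding is strained. Manf had 91.8, 92.8 and 106 CPM at day 3, against 41.6, 48.9 and 43.5 CPM at day 0. Sdf2l1 had 31.5, 31.7 and 40.7 CPM at day 3, against 11.6, 12.7 and 9.79 CPM at day 0, and Creld2 had 35.9, 42 and 38.2 CPM at day 3, against 16.3, 17.8 and 18.4 CPM at day 0. Every day 3 library was above day 0, with log2 fold changes of 1.12 ± 0.11, 1.61 ± 0.17 and 1.14 ± 0.12 (adjusted p = 0.0008, 0.000949 and 0.00102). Pdia4, a disulfide isomerase, rose 1.9-fold (adjusted p = 0.00334). The cytosolic heat shock gene Hspb1, abundant in muscle, had 321, 352 and 1916 CPM at day 3, against 305, 283 and 256 CPM at day 0, high in replicate 4 alone, and did not pass (adjusted p = 0.107).

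Genes of growth rose in many cases. Ribosome biogenesis genes rose in 11 of 16 cases and proteasome genes in 10 of 16, with medians of 0.69 and 0.61, and none fell. With the alveolar covariate 4 and 1 of them rose. Npm1, nucleophosmin of the nucleolus, had 210, 176 and 277 CPM at day 3, against 114, 109 and 118 CPM at day 0, and Psma5, a proteasome core subunit, had 66.5, 57.8 and 101 CPM at day 3, against 39.8, 34.8 and 34.8 CPM at day 0. Replicate 4 was the highest and lung-rich replicate 3 the lowest at day 3 in both. The log2 fold changes were 0.96 ± 0.16 and 1.04 ± 0.19 (adjusted p = 0.00748 and 0.00984), and the call of Psma5 ended in the fit of 6 libraries (0.0537, within 0.000143 to 0.134). Nop56, Nop58 and Gnl3, further nucleolar proteins, rose 1.69-fold, 1.73-fold and 1.99-fold (adjusted p = 0.00502, 0.0068 and 0.00599). Cell cycle genes rose in 7 of 18 cases and fell in 0, and in 3 with the covariate. Cdk1, the kinase that starts mitosis, had 24.6, 18.1 and 16.1 CPM at day 3, against 9.13, 9.61 and 7.32 CPM at day 0, and Pcna, the clamp of DNA polymerase, had 72.9, 74 and 65.8 CPM at day 3, against 43.7, 48.3 and 44.6 CPM at day 0. Both were above day 0 throughout (log2 fold change 1.18 ± 0.22 and 0.64 ± 0.10, adjusted p = 0.0117 and 0.00435). Mki67, the proliferation antigen Ki-67, had 185, 155 and 57.9 CPM at day 3, against 111, 127 and 99.6 CPM at day 0, with replicate 4 under day 0, and did not pass (adjusted p = 0.669).

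Energy metabolism changed in some branches. Of 15 glycolysis and hypoxia genes 5 rose and 1 fell, and the rest were not called. The median of the list was 0.15, and 0.03 with the covariate. Slc2a1, the glucose transporter GLUT1, had 55.2, 53.2 and 64.4 CPM at day 3, against 17.1, 21.8 and 19.5 CPM at day 0. Hif1a, the hypoxia-inducible factor, had 143, 116 and 145 CPM at day 3, against 45.1, 44.9 and 54.8 CPM at day 0. Eno1, enolase, had 474, 386 and 578 CPM at day 3, against 152, 154 and 208 CPM at day 0. All 3 were above day 0 in every day 3 library, at log2 fold changes of 1.56 ± 0.15, 1.48 ± 0.15 and 1.48 ± 0.19 (adjusted p = 0.000634, 0.000713 and 0.00211), while Vegfa, also a target of hypoxia signalling, was the one that fell. Of 19 oxidative phosphorylation and citrate cycle genes 0 rose and 0 fell, but 17 fell with the covariate. In the list means, replicate 3 was the lowest day 3 library, at 7.61, beside 8.40 and 8.79 in replicates 1 and 4 and 8.54, 8.69 and 8.68 at day 0. Fatty acid synthesis genes fell in 5 of 14 cases and rose in 0. Acaca, which makes malonyl-CoA, had 50.1, 49.8 and 46.3 CPM at day 3, against 84.5, 110 and 258 CPM at day 0. The change of -1.63 on the log2 scale (adjusted p = 0.0202) was -1.0 with day 0 replicate 3 left out, and the call ended without day 3 replicate 4 (0.0526), in the fit of 6 libraries (0.0689) and with the covariate (0.0748), within 7.54e-05 to 0.134. The adipocyte list mean was 5.71, 3.97 and 4.59 at day 3, against 4.76, 4.8 and 6.91 at day 0. Its highest library, day 0 replicate 3, was also the highest in Fasn, Scd1, Thrsp and Acaca, and the part of adipocyte content in their falls was not tested. Lpl, lipoprotein lipase, had 1652, 887 and 1413 CPM at day 3, against 1146, 1264 and 1648 CPM at day 0. Cholesterol genes rose in 2 of 15 cases, near the background share, and fell in 3, and without day 3 replicate 3 in 1 and 7. Abca1, which exports cholesterol from macrophages, had 130, 107 and 118 CPM at day 3, against 48.4, 45.4 and 64.4 CPM at day 0 (log2 fold change 1.17 ± 0.20, adjusted p = 0.00709), and Insig1, a sensor that restrains cholesterol synthesis, fell 1.9-fold (adjusted p = 0.0113).

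Of 16 genes of mature skeletal muscle 0 rose and 2 fell, and without day 3 replicate 3 the counts were 2 and 2. The falls were Pvalb, the calcium buffer parvalbumin, and Myl1, a myosin light chain. Pvalb had 1979, 890 and 583 CPM at day 3, against 4067, 3881 and 3185 CPM at day 0. Its log2 fold change of -1.69 ± 0.42 (adjusted p = 0.0292) was -2.33 without day 3 replicate 1, and the call ended without any 1 of the day 0 libraries or day 9 replicate 3 (0.0513 to 0.0920), with the covariate (0.0701) and in the fit of 6 libraries (0.0822), within 0.00011 to 0.109. Myl1 had 2471, 1086 and 2183 CPM at day 3, against 4925, 4463 and 3337 CPM at day 0, a change of -1.15 ± 0.33 on the log2 scale (adjusted p = 0.0466), and its call held only without day 3 replicate 1 or 3 among the 9 fits that left out 1 library (0.0600 to 0.144 in the others), and it ended in the fit of 6 libraries (0.105), within 0.00128 to 0.201. Of 16 genes of muscle damage and regeneration, 7 rose and 0 fell, with a median of 2.81. Without day 3 replicate 3, 13 of the damage genes rose, and with the covariate 2 did. Their list mean was 3.46, 3.39 and 6.50 at day 3, against 2.21, 2.27 and 2.00 at day 0, so replicate 4 was far above the rest and all 3 were above day 0. Chrna1, the alpha subunit of the muscle acetylcholine receptor, had 58.5, 48.5 and 161 CPM at day 3, against 10.7, 12.1 and 9.06 CPM at day 0 (log2 fold change 3.07 ± 0.44, adjusted p = 0.00335, and 2.33 without replicate 4). Chrnd, the delta subunit, had 8.6, 12.6 and 116 CPM at day 3, against 2.4, 3.06 and 2.14 CPM at day 0, with a log2 fold change of 4.17 ± 0.97 (adjusted p = 0.0236) that was 2.06 without replicate 4. Chrnd was no longer called when a day 0 library was left out (0.0823 to 0.0920) or day 9 replicate 4 (0.05), with the covariate (0.137), with limma-voom (0.141) and in the fit of 6 libraries (0.0823), within 3.49e-06 to 0.186. Of 12 muscle atrophy genes 1 rose and 1 fell (8.33% each, against 12.9% and 3.29% of all tested genes). Without day 3 replicate 3 the counts were 3 and 4, where 17.1% and 17.5% of all tested genes were called. Gadd45a, a stress gene induced in denervated muscle, had 42.4, 52.5 and 84.4 CPM at day 3, against 20.2, 19.5 and 14.2 CPM at day 0 (log2 fold change 1.73 ± 0.26, adjusted p = 0.00398). Smooth muscle genes rose in 1 of 11 cases (9.09%, against 12.9% of all tested genes) and fell in 3 (27.3%, against 3.29%). Myh11, the smooth muscle myosin, had 56.2, 50.4 and 59.6 CPM at day 3, against 113, 110 and 120 CPM at day 0 (log2 fold change -1.05 ± 0.12, adjusted p = 0.0011).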

How the data were processed

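RNA-seq of mouse chest tissue was measured in 9 libraries, and 6 of them, 3 of day 3 and 3 of day 0, form the comparison. The authors deposited whole-number read counts per gene, and the genome build is GRCm38 (mm10), per the submitters' processing notes. The aligner, the counting tool and the use of strand are named in none of the sources used here, so overlapping and near-identical genes may share reads. The authors also deposited TPM values, which were proportional to the counts with no gene length in them and were not used, and a table of log2 fold changes with p-values, from which only calls were counted. A further 18 per-sample columns were not used.

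Counts were tested with edgeR 4.0.16 in R 4.3.3, by the quasi-likelihood F-test over all 9 libraries with 1 mean per day, TMM scaling, the tool's filter on low counts and Benjamini-Hochberg adjustment at 0.05. All 9 libraries share 1 estimate of spread. The genes, 52 lists and the choice of results were made with earlier results of these data known. Named genes are the 15 largest rises and 15 largest falls among called genes with at least 5 CPM on average and no overlap between groups, and, from each list, up to 4 called genes per direction with the smallest adjusted p plus the most abundant if it was not called. Some of the genes this rule gave are not described. Col3a1 is named outside it and was not followed through the alternatives. Alternatives were DESeq2 1.42.0 size factors and test, limma 3.58.1 with voom, no filter, 6 libraries alone, a replicate block, the alveolar covariate and each library left out. The fit was tested on simulated counts of 14544 genes, drawn around the day 0 means, with 200 genes changed at day 3. Of 50 genes each, 15 at a log2 change of 1, 46 at 2, 12 at -1 and 48 at -2 were called, beside 4 unchanged genes. Small changes were often missed under these settings. The data had far more called genes and libraries that differed in lung content, which was not simulated, so these rates need not hold for them. The libraries held 14515737 to 18004052 counts, and none of the 6 pairs of libraries of the same day, over days 3 and 0, agreed within sampling noise.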

Additional observations from a re-analysis of the deposited data

How the results depend on the processing

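Of the called genes named in the text, 132 were followed through the 16 alternatives, and all kept their direction under each that gave them a value. They were named because they were called, and nearly all called genes had groups without overlap. Leaving out 1 library can hardly turn such a gene, and every alternative reused the same counts. Their kept direction is therefore no added support. Genes that were not called could turn: on the log2 scale S100a9 (0.37) was -0.08 with limma-voom, Thbd (-0.93) and Scgb1a1 (-1.05) were 0.06 and 0.29 with the alveolar covariate, and Col2a1 (1.38) was -0.8 with the replicate block and -8.37 with the covariate. With 1 library left out S100a9 lay between -0.02 and 0.85, Lpl (-0.04) between -0.23 and 0.13, Col2a1 between -3.47 and 8.53 and Mki67 (0.23) between -0.08 and 0.59. Among all genes, 749 were higher and 175 lower in the fit of the 6 libraries of days 3 and 0 alone, 1031 higher and 676 lower with the alveolar covariate, and 1206 lower with DESeq2, which called 2088 higher. DESeq2 size factors in place of TMM gave 1501 higher and 606 lower, no filter on low counts 1733 and 397, and limma-voom 1792 and 645. Leaving out 1 library gave 687 to 2555 higher and 131 to 2624 lower genes. The fewest came without day 0 replicate 1 (687 and 131). The counts also moved by over 1.5 times without day 0 replicate 2 (786 and 138) or 3 (897 and 165), in higher genes without day 9 replicate 1 (1264) or 4 (1033), and in lower genes without day 3 replicate 3 (2624) or day 9 replicate 3 (292). Called in all 9 of these fits were 634 higher and 100 lower genes. The authors' deposited table calls 1178 genes higher and 544 lower, of which 1047 and 278 are also called here.

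Day 3 and day 0 share only replicate numbers 1 and 3, and the deviations of same-numbered libraries from their group means had correlations of -0.0695 and -0.0884, so there are too few pairs to say whether the numbers pair the samples. With the replicate block 186 genes were higher and 28 lower, and 69 of the 132 called genes were not called. With DESeq2 size factors Chrng was not called (0.0532), and with no filter on low counts Chrng (0.05), Nr1d1 (0.05) and Myl1 (0.0534) were not. Depth limits genes with few reads at day 0 (14 for Cxcl5, 9 for Cxcl3), whose folds are uncertain.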
